A study of Homo sapiens with 4 samples.

Results

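Genes that respond to interferon or sense double-stranded RNA were followed across the 4 arrays of a KSR1 knockdown experiment in HCT116, an established human line of colorectal adenocarcinoma. The members were 52 listed symbols, and every probe set annotated to only one of them was taken, with no filter on brightness. This gave 50 genes of the 19775 that had a probe set of 1 symbol, on 86 of the 54675 probe sets. DDX58 and STAT2 had no probe set of their own under those symbols and were not analysed here, although DDX58 is the older name of RIGI, which had 3. The lines carried a first shRNA against KSR1 (hairpin #1), a second one (hairpin #2) or a control shRNA (shCTRL), beside untransfected HCT116 cells, and each had 1 array. Per the labels' protocols, transfection used lipofectamine and clones were selected with puromycin, so the 3 shRNA lines also share transfection, vector and selection, and no source used here says whether an array holds 1 clone or several. KSR1 is a scaffold that brings RAF, MEK and ERK kinases together.

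Double-stranded RNA in the cytoplasm is recognised by the helicases RIGI and IFIH1 (MDA5), which signal through the adaptor MAVS to induce type I and type III interferons. Secreted interferon binds its receptors, and the kinases JAK1 and TYK2 then activate transcription factors, among them STAT2, which joins IRF9 in the complex ISGF3. ISGF3 binds the interferon-stimulated response element (ISRE) in promoters of interferon-stimulated genes, whose products degrade viral RNA, block translation or restrain viral entry. Several sensors are themselves interferon-stimulated, and cancer lines differ in their resting level of these genes.

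The deposited values are intensities on a linear scale. Levels below are those intensities, and differences are taken after log2(intensity + 16), which understates the difference of dim probe sets. A difference of 1 log2 unit, 2-fold on this scale, is the size rule used to count. With 1 array per group no difference between 2 arrays has a replicate check or a p-value. The 4 array medians lay between 50.7 and 52.0. KSR1, on its brightest probe set, had an intensity of 141 with hairpin #1, 171 with hairpin #2, 211 in shCTRL cells and 209 in untransfected cells. The log2 difference from shCTRL was -0.53 for hairpin #1 and -0.28 for hairpin #2. Among probe sets within 0.5 log2 units of this brightness, shCTRL minus untransfected differences had an SD of 0.29. The hairpin #2 difference in KSR1 was within that spread. The other 3 KSR1 probe sets were dim and gave no common direction. The geometric mean of 18 hybridization controls was 1583 with hairpin #1, 2117 with hairpin #2, 1820 in shCTRL and 1769.9 in untransfected cells, so it was highest for hairpin #2. Actin probe sets at the 3' end exceeded those at the 5' end by factors of 2.01, 2.22, 2.09 and 2.68, with the arrays in the same order. Of 11 epithelial markers, 10 reached the median of all probe sets, from KRT18 between 12123 and 16755 to CEACAM5 between 50.5 and 59.1. EPCAM was even, between 7855 and 8119, and LGALS4 stayed at or under 38.5. The epithelial markers summed to 35267 with hairpin #1, 45463 with hairpin #2, 37806 in shCTRL and 37435 in untransfected cells. Their sum, like KRT18, was thus highest with hairpin #2. Among the 6 fibroblast, 6 leukocyte, 3 endothelial and 3 plasmacytoid dendritic cell markers measured, 2, 1, 1 and 1 did so, COL1A1 (fibroblasts) lay between 372 and 433, PTPRC stayed at or under 17.4, and the leukocyte markers summed to 178, 204, 210 and 218 in the same order of arrays. In such bulk samples a smaller share of expressing cells and less RNA per cell cannot be told apart.

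A subset of interferon-stimulated genes was higher on the hairpin #2 array than on each of the other 3, and hairpin #1 did not share this. Against shCTRL, 9 of the 86 probe sets were at least 1 log2 unit higher with hairpin #2 (10.5%), where 0.487% of all probe sets were, and 0 were as much lower, where 0.454% of all were. They belonged to 7 genes, namely IFI27, SAMD9, IFIT1, IFIT3, OAS1, IFIH1 and IFI6. With hairpin #1, 0 of the 86 were 1 log2 unit above or below shCTRL, where 0.0567% and 0.174% of all probe sets were. The members' median difference from shCTRL was 0.09 with hairpin #2 and -0.04 with hairpin #1, beside -0.01 over all probe sets for either hairpin. Over the 38 member probe sets whose mean over the 4 arrays reaches the median brightness, the hairpin #2 median was 0.27, beside 0.01 over all such probe sets. That mean includes hairpin #2, so a high value there helps a probe set to pass, and the 0.27 is no independent support. IFI27 passed although its log2 values on the other 3 arrays, 5.65, 5.69 and 5.95, were below the limit of 6.08. IFIT1 was also below it in shCTRL (5.78) and untransfected cells (5.81). The dimmer SAMD9 probe set was below it with hairpin #1 (6.07) and in shCTRL (5.89). With 64 in place of 16 as the constant, 5 of the 9 probe sets passed the size rule (5.81%), beside 0.260% of all, and OAS1, IFIH1 and IFI6 did not.

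**Figure D1:**
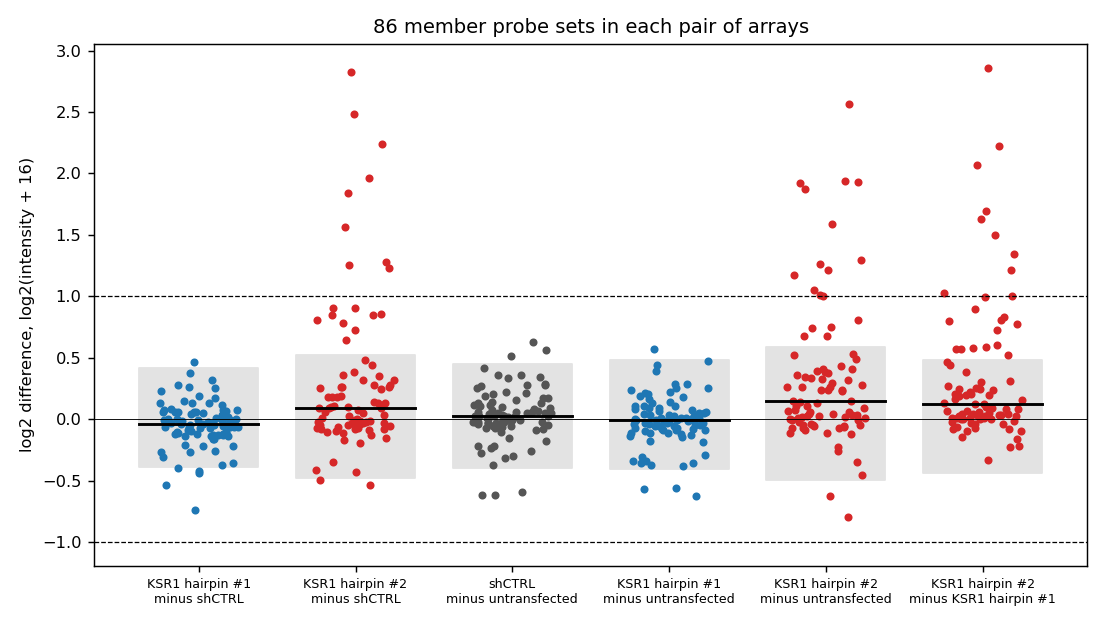
Each point is 1 of the 86 member probe sets, the vertical axis is its log2 difference between the 2 arrays named below it, the black bar is the members' median and the grey box spans the central 95% of all 54675 probe sets; dashed lines mark 1 log2 unit. Points above 1 appear in the 3 pairs that hold hairpin #2, up to 2.86 for IFI27, and in none of the other 3 pairs, where the largest absolute difference was 0.74.

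The other pairs of arrays gave the same picture, although they share arrays with the pairs above and add no independent support. Hairpin #2 against untransfected cells had 13 probe sets of 11 genes at least 1 log2 unit higher (15.1%), beside 0.593% of all probe sets. IRF9, PARP9, RIGI and IFIT2 were added to the 7 genes by this pair. Hairpin #2 against hairpin #1 had 9 probe sets of 7 genes (10.5%), beside 0.49% of all, with IRF9 among them and IFI6 just short of the limit. In neither pair was a member lower by that size, beside 0.507% and 0.36% of all probe sets. Between shCTRL and untransfected cells, and between hairpin #1 and untransfected cells, 0 members differed by 1 log2 unit in either direction, beside 0.192% and 0.152% of all probe sets that were higher and 0.199% and 0.245% that were lower.

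A count by array, added after the values were seen, put this in 1 line. Hairpin #2 had the highest of the 4 values for 48 of the 86 member probe sets (55.8%), beside 25.3% of all probe sets. It was at least 1 log2 unit above all 3 other arrays for 8 of them (9.30%), beside 0.249% of all, and these belonged to IFI27, SAMD9, IFIT1, IFIT3, OAS1 and IFIH1. The other 3 arrays had 0 members each at that distance above the rest, beside 0.00914% of all probe sets for hairpin #1, 0.0366% for shCTRL and 0.0695% for untransfected cells. At that distance below all others there were 0 members on any array, beside 0.0219% of all for hairpin #1, 0.161% for hairpin #2, 0.00549% for shCTRL and 0.0146% for untransfected cells. Hairpin #1 was the lowest of the 4 for 29 members (33.7%), beside 25% of all.

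**Figure D2:**
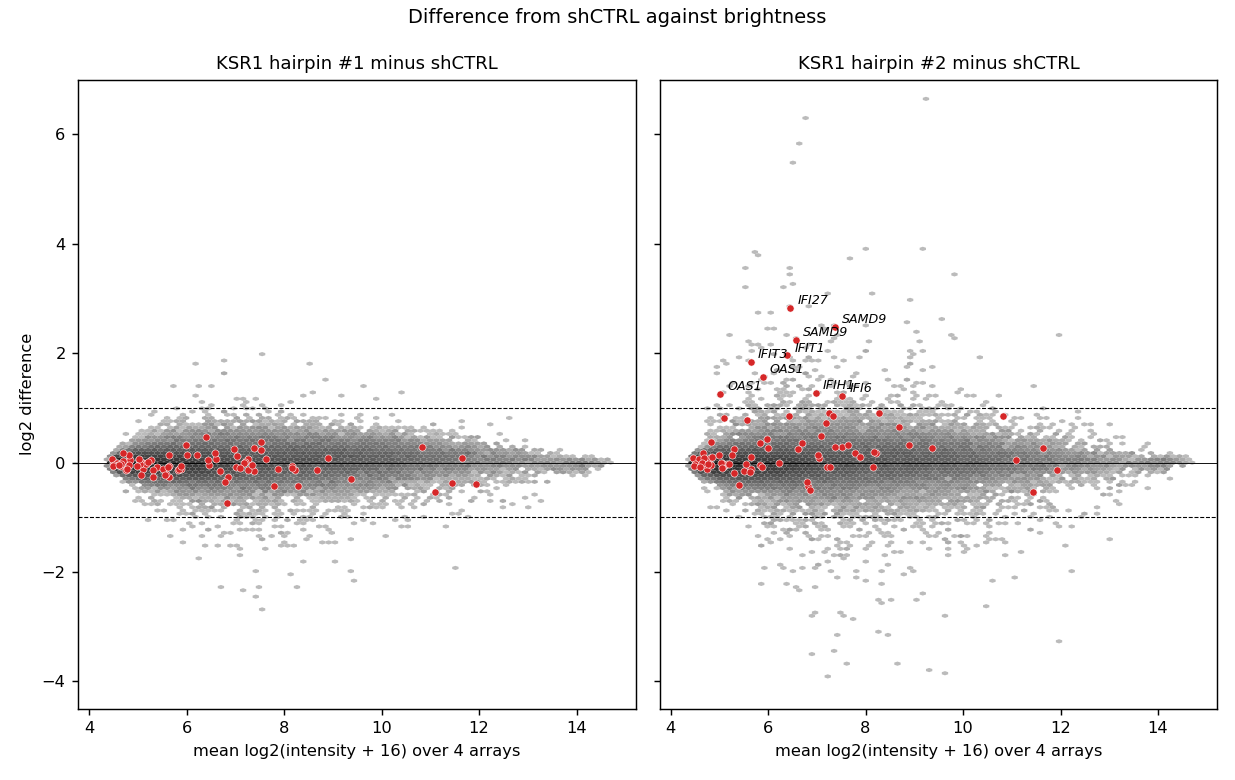
Red points are the 86 member probe sets and grey shading all 54675, placed by mean log2(intensity + 16) over the 4 arrays (horizontal) and by log2 difference from shCTRL (vertical), for hairpin #1 on the left and hairpin #2 on the right. The 9 labelled points above the dashed line at 1 have mean log2 values between 5.02 and 7.52, while the brightest members, IFITM3 and ADAR at 11.93 and 11.64, lie at -0.13 and 0.26 on the right.

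The promoter sequences of 6 members are shown because the response element named above is short enough to be read in them. IFI27, IFIT1, SAMD9, IFIH1 and OAS1 are 5 of the genes that were higher with hairpin #2, and MX1 is a well known interferon-stimulated gene that was dim on every array. Each is the RefSeq sequence of build GRCh38.p14 from 250 bases before to 50 after an annotated start, the first listed where a gene has several, with matches to the ISRE core (GAAA, then 2 bases of any kind, then GAAA again, on either strand) in capitals. Neighbouring matches that overlap, as in IFIH1, appear as 1 run of capitals.
IFI27, chr14:94110486-94110785, plus strand: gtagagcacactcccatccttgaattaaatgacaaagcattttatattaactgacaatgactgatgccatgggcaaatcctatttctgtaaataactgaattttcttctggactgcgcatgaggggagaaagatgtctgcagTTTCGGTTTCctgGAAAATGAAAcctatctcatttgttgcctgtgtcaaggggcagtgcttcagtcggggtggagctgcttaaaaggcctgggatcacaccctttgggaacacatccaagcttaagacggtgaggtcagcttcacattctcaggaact
IFIT1, chr10:89392373-89392672, plus strand: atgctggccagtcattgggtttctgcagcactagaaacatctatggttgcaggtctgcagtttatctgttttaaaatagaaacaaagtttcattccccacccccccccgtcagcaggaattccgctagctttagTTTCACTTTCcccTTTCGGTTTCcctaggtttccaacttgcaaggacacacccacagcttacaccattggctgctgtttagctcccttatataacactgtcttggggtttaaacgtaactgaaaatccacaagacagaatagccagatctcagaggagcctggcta
SAMD9, chr7:93117930-93118229, minus strand: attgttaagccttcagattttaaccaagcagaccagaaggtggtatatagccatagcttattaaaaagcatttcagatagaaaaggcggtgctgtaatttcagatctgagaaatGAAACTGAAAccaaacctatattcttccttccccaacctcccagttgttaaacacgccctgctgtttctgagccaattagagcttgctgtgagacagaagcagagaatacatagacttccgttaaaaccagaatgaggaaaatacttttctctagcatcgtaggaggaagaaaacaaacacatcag
IFIH1, chr2:162318635-162318934, minus strand: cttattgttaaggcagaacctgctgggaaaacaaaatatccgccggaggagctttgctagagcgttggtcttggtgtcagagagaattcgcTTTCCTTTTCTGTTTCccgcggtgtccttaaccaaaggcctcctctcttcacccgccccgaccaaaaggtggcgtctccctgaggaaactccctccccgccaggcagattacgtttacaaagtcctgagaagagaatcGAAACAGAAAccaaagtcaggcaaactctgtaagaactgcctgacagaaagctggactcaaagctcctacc
OAS1, chr12:112906712-112907011, plus strand: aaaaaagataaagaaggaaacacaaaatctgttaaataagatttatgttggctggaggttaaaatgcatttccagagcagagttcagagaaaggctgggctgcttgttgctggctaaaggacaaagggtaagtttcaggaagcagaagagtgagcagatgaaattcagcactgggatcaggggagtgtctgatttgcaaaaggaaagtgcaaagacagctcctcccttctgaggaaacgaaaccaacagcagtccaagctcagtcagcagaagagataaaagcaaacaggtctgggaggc
MX1, chr21:41420308-41420607, plus strand: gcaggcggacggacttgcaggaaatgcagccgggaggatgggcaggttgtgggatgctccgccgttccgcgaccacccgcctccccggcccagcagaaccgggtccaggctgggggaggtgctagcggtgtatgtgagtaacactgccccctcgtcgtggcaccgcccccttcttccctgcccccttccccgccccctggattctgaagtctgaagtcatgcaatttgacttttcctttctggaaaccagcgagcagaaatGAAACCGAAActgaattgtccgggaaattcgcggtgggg

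IFIH1 held 3 matches, IFI27 and IFIT1 held 2 each, SAMD9 and MX1 held 1 each, and OAS1 held none of exactly these letters. The match of MX1 lies after the start in this window, and the capitals of the other genes lie before it. Promoters were given for 41 of the listed genes, and 28 of them (68.3%) held the core in at least 1 promoter, where 4.38% of all 27305 genes with a promoter did. Among the 7 genes higher with hairpin #2 than in shCTRL, 6 held it. Of the 33 other measured genes with a promoter, 22 did, so the core was common on both sides of the size rule. The gamma-activated sequence TTCNNNGAA, on either strand, was in 13 of the 41 (31.7%), beside 9.38% of all genes, with 2 of the 7 and 11 of the 33. Matches of the 2 motifs may overlap, as they do in IFI27. These are letter matches and say nothing of binding.

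**Figure D3:**
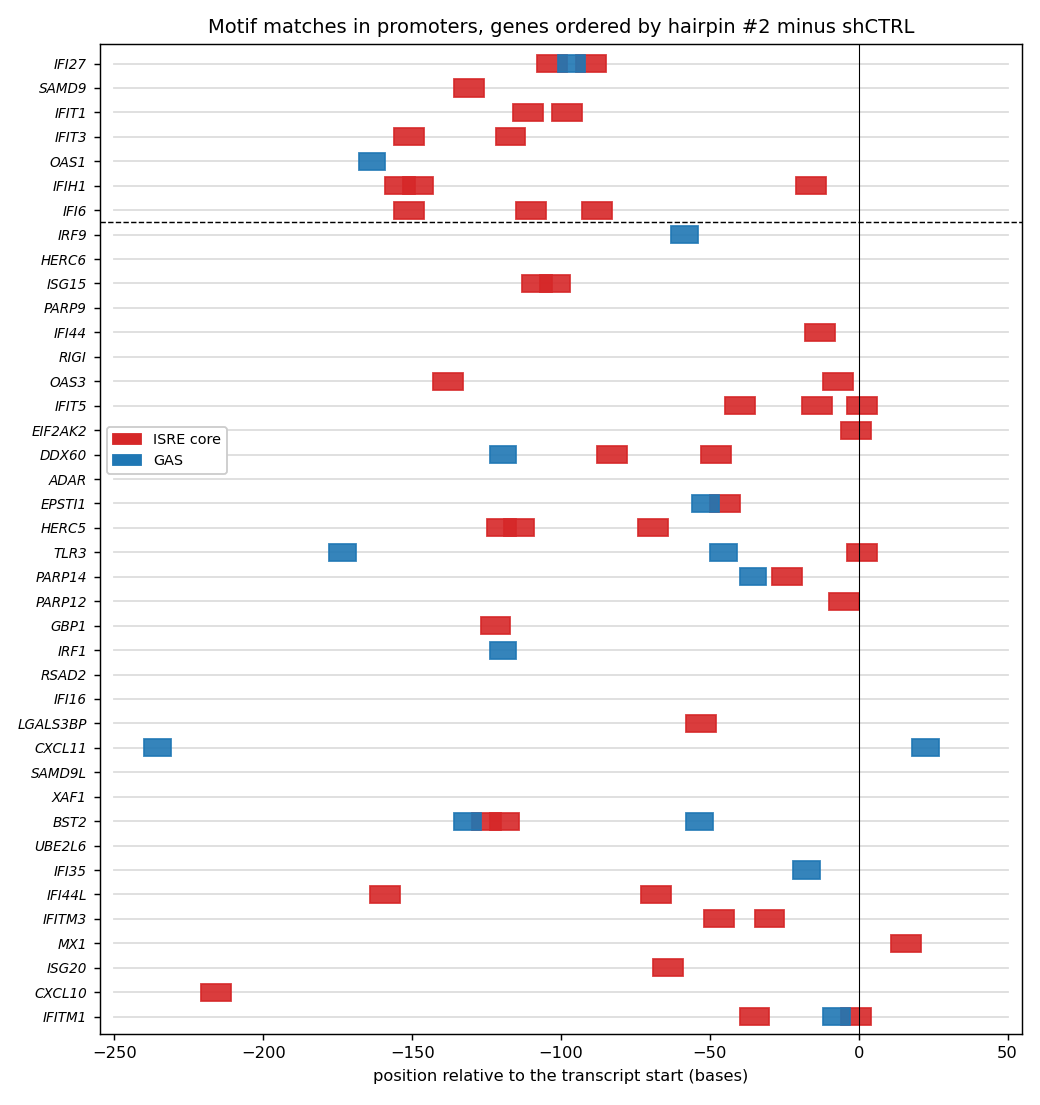
Rows are the 40 measured genes with a promoter, ordered from the top by their largest hairpin #2 minus shCTRL log2 difference over probe sets; the horizontal axis is the position relative to the first annotated start in bases, red boxes are ISRE core matches and blue boxes GAS matches. The dashed line separates the 7 genes at 1 log2 unit or more, 6 of which have a red box, from the other 33.

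Among the sensors of RNA, IFIH1 stood out. This helicase, which detects long double-stranded RNA, had an intensity of 98.2 with hairpin #1, 216 with hairpin #2, 79.6 in shCTRL and 84.0 in untransfected cells. Hairpin #2 was 1.28 log2 units above shCTRL, and the other 3 arrays lay close together. The SD of shCTRL minus untransfected differences among probe sets within 0.5 log2 units of its brightness was 0.28. That pair leaves out hairpin #2. Over all probe sets its SD was 0.21, beside 0.27 for hairpin #2 minus shCTRL, so such spreads are narrow for the hairpin #2 array, here and below. The other 2 IFIH1 probe sets were dim, between 8.73 and 17.8, and carry little weight.

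RIGI, which senses short double-stranded RNA with 5' triphosphate ends, was highest with hairpin #2 on all 3 of its probe sets, by unequal amounts. Its brightest had 262, 316, 274 and 238 with hairpin #1, hairpin #2, shCTRL and untransfected, a log2 difference from shCTRL of 0.19 for hairpin #2. The middle one had 119, 207, 119 and 94.3 in that order, a difference of 0.72. Hairpin #2 was thus above shCTRL on each, but past 1 log2 unit only against untransfected cells and on the middle probe set, at 1.01.

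The third helicase of this family, DHX58 (LGP2), which modulates the other two, was dim and even, between 41.8 and 53.3. TLR3, the endosomal receptor for double-stranded RNA, was dim as well, with 25.02, 24.0 and 24.8 on the hairpin #1, hairpin #2 and shCTRL arrays against 11.6 in untransfected cells. DDX60, a helicase reported to assist RIGI, had 198 with hairpin #1 and 184 with hairpin #2, against 149 in shCTRL and 147 in untransfected cells. Both KSR1 hairpins were thus above both other arrays, by 0.37 and 0.28 log2 units over shCTRL.

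The oligoadenylate synthetases are activated by double-stranded RNA and make a short oligoadenylate messenger. OAS1 had intensities of 27.9, 120, 29.9 and 29.2 with hairpin #1, hairpin #2, shCTRL and untransfected on its brighter probe set, and 10.9, 46.2, 10.1 and 9.32 on the dimmer one. Both put hairpin #2 above shCTRL, by 1.56 and 1.26 log2 units, and the 3 other arrays were low and almost equal. OAS3 was already well expressed, with 333 and 581 with hairpins #1 and #2, against 366 in shCTRL and 340.4 in untransfected cells, a hairpin #2 difference of 0.64. OAS2 stayed dim, between 16.7 and 33.0 over its 3 probe sets. OASL, a catalytically inactive relative, had 70.2 and 108 with hairpins #1 and #2, 80.3 in shCTRL and 95.9 in untransfected cells, so hairpin #2 exceeded shCTRL by 0.36 and untransfected cells by 0.14 log2 units. On its second probe set these were 0.86 and 0.24.

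A pair of RNA-binding enzymes was bright on all arrays. EIF2AK2 (PKR), the kinase that halts translation on double-stranded RNA, had 548 and 822 with hairpins #1 and #2, 681 in shCTRL and 569 in untransfected cells. The inosine-forming deaminase ADAR, which marks cellular double-stranded RNA as self, had 3147 and 3585 with the hairpins, 2981 in shCTRL and 3053 in untransfected cells. Their hairpin #2 differences from shCTRL were 0.27 and 0.26, about the spread of 0.29 and 0.24 seen between shCTRL and untransfected cells at their brightness. Between the hairpins EIF2AK2 differed more, by 0.57 (hairpin #2 minus hairpin #1). Over the 24 probe sets of the sensor group, 19 were highest with hairpin #2, beside 25.3% of all probe sets, and the median difference from shCTRL was 0.27, beside -0.01 over all.

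**Figure D4:**
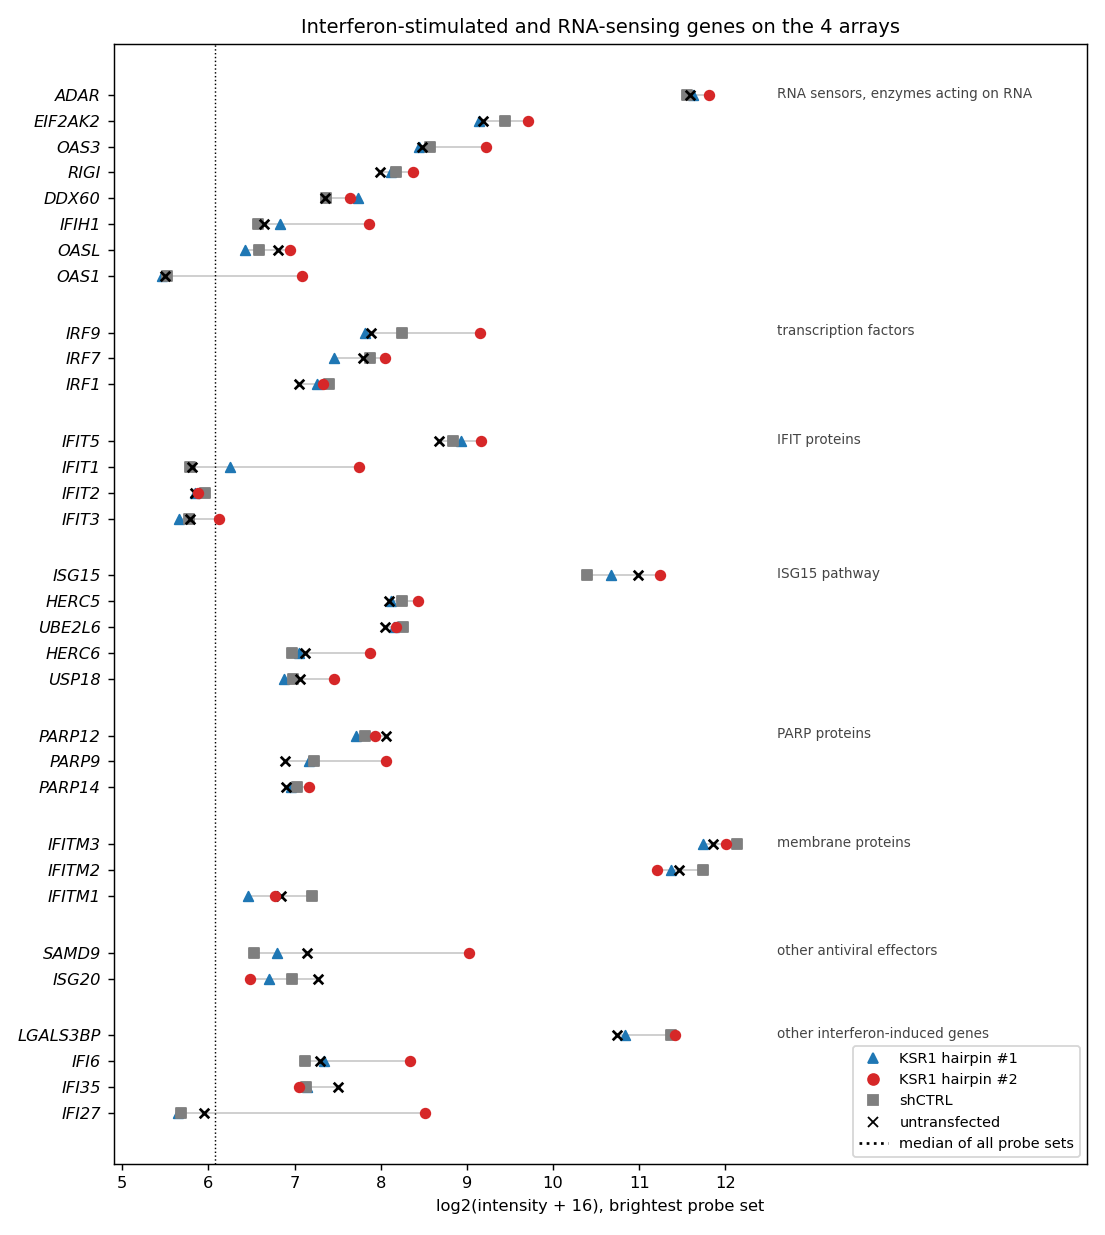
Each row is 1 gene, by its brightest probe set, and each symbol 1 array on the horizontal axis of log2(intensity + 16); genes shown reach the median of all probe sets (dotted line, 6.08) on average or had a probe set that differed by 1 log2 unit in some pair. Hairpin #2 (red circles) lies far right of the other 3 symbols for IFI27, SAMD9, IFIT1 and OAS1, and left of them for IFITM2 and ISG20.

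Of the transcription factors, IRF9, the DNA-binding subunit of ISGF3, differed most. It had 209 with hairpin #1 and 555 with hairpin #2, against 289 in shCTRL and 221 in untransfected cells. The log2 difference was 0.91 from shCTRL, 1.27 from untransfected cells and 1.34 from hairpin #1. IRF7, which amplifies interferon induction, had 159 and 249.9 with the hairpins, 218 in shCTRL and 205 in untransfected cells. IRF1, a factor typical of interferon gamma responses, had 138, 145, 153 and 117 in the order hairpin #1, hairpin #2, shCTRL, untransfected. On this probe set, its brighter one, untransfected cells were lowest and hairpin #2 was -0.07 from shCTRL. IRF9 was the one factor of these 3 that passed 1 log2 unit in any pair.

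The IFIT proteins bind viral RNA or the translation factor eIF3. IFIT1 had 60.1 with hairpin #1 and 199 with hairpin #2, against 39.1 in shCTRL and 40.01 in untransfected cells, a log2 difference of 1.96 between hairpin #2 and shCTRL. Hairpin #1 was second, 0.47 log2 units above shCTRL. IFIT3, the binding partner that stabilises IFIT1, depended on the probe set. Its brighter one on average had 34.6 and 54.0 with hairpins #1 and #2, 38.9 in shCTRL and 39.2 in untransfected cells, while the other had 23.8 and 113, against 19.9 and 17.7. The hairpin #2 differences from shCTRL were 0.35 and 1.84.

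IFIT2 showed the same disagreement, with -0.08 on the brighter and 0.78 on the dimmer probe set, where hairpin #2 was at 61.0 and the others between 22.4 and 28.7. IFIT5, the family member that is expressed without stimulation, had 471 and 558 with the hairpins, 443 in shCTRL and 392 in untransfected cells. Hairpin #2 was 0.32 above shCTRL, close to the spread at that brightness (0.30).

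ISG15 is a ubiquitin-like modifier, and its pathway was bright on all arrays. ISG15 itself had 1617 with hairpin #1 and 2408 with hairpin #2, against 1329 in shCTRL and 2011 in untransfected cells. The hairpin #2 difference was 0.85 from shCTRL but 0.26 from untransfected cells, with shCTRL the lowest array. HERC6, of the HERC ligase family, had 116 and 219 with the hairpins, 109.8 in shCTRL and 124 in untransfected cells, which is 0.90 above shCTRL and 0.75 above untransfected cells for hairpin #2.

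USP18, the protease that removes ISG15 and dampens receptor signalling, had 102 and 160.3 with hairpins #1 and #2, 110.1 in shCTRL and 117 in untransfected cells. The conjugating enzyme UBE2L6 lay between 248 and 289, and the ligase HERC5 between 257 and 328, with hairpin #2 at -0.08 and 0.18 from shCTRL.

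PARP9, a mono-ADP-ribosyltransferase partner of DTX3L, had 128 and 252 with hairpins #1 and #2, 133 in shCTRL and 102 in untransfected cells on its brighter probe set. The hairpin #2 differences were 0.84 from shCTRL and 1.18 from untransfected cells. On the dimmer probe set PARP9 was even, between 55.8 and 63.5. PARP14 lay between 104 and 128 and PARP12 between 194 and 250.5, with hairpin #2 above shCTRL by 0.13 and 0.11.

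The IFITM proteins sit in membranes and block viral fusion, and they did not follow the hairpin #2 pattern. IFITM3 had 3395 with hairpin #1 and 4095 with hairpin #2, against 4469.7 in shCTRL and 3698 in untransfected cells. IFITM2 had 2628 and 2346 with the hairpins, against 3414 in shCTRL and 2814 in untransfected cells. IFITM1 had 72.3 and 93.2, against 131 and 98.8. For all 3, shCTRL was the highest array and both hairpins were below it. The log2 differences of hairpins #1 and #2 from shCTRL were -0.40 and -0.13 for IFITM3, -0.38 and -0.54 for IFITM2, and -0.74 and -0.43 for IFITM1. The family's sequences are closely alike, and the 2 brighter probe sets carry the suffix that the array maker gives to probe sets open to cross-hybridization, so the members may not be fully separated. BST2 (tetherin), which holds budding virus at the surface, was dim at 38.1 to 43.1.

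Among the other antiviral effectors the contrast between related genes was wide. SAMD9, a restriction factor for poxviruses, had 95.1 with hairpin #1 and 504 with hairpin #2, against 76.7 in shCTRL and 126 in untransfected cells on its brighter probe set. The dimmer one had 51.0 and 265, against 43.4 and 58.1. Hairpin #2 was above shCTRL by 2.49 and 2.24 log2 units, so both probe sets gave a difference of similar size. Its neighbour and paralog SAMD9L stayed dim on 3 probe sets, between 15.9 and 21.8, with hairpin #2 minus shCTRL between -0.03 and -0.01.

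ISG20, a 3' to 5' exonuclease, went the other way on both of its probe sets. The brighter had 88.3 with hairpin #1 and 73.1 with hairpin #2, against 109.8 in shCTRL and 138.5 in untransfected cells. Untransfected cells were highest and both hairpins lowest, and the second probe set, with 77.7 and 77.8 against 104 and 129, showed the same order of groups. The GTPases MX1 and MX2, the radical enzyme RSAD2 (viperin), TRIM22, GBP1, GBP2 and the DNA sensor IFI16 were dim on every array, with brightest probe sets between 7.32 and 39.4. Their hairpin #2 differences from shCTRL ran from -0.19 for TRIM22 to 0.10 for GBP1, at levels where a difference may not be detectable.

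IFI27, a mitochondrial protein strongly induced by type I interferon, had the largest difference of all members. Its intensity was 34.3 with hairpin #1 and 349.6 with hairpin #2, against 35.6 in shCTRL and 45.7 in untransfected cells. On the log2(intensity + 16) scale hairpin #2 was 2.83 above shCTRL and 2.57 above untransfected cells, while the 3 other arrays were below their own medians. IFI6, a related small protein, had 147 and 309 with hairpins #1 and #2, 123 in shCTRL and 141 in untransfected cells, 1.23 log2 units above shCTRL for hairpin #2.

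IFI44 was dim, but with 36.3 with hairpin #2 against 13.8, 13.9 and 13.9 on the other arrays it had the same order, and IFI44L was not above 12.7 anywhere. IFI35 was highest in untransfected cells at 165, against 125, 116 and 124 with hairpin #1, hairpin #2 and shCTRL. LGALS3BP, a secreted glycoprotein, paired hairpin #2 with shCTRL, at 2719 and 2625, against 1804 with hairpin #1 and 1696 in untransfected cells. EPSTI1 and XAF1 were dim, and the chemokines CXCL10 and CXCL11, which attract T cells, did not exceed 30.5.

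Of the members as a whole, 21 of the 50 genes had their brightest probe set below the median of all probe sets on average, and 18 of those never differed by 1 log2 unit on any probe set. Their brightest probe sets ran from 7.11 to 53.3, and the widest spread over the 4 arrays, that of IFI44, was 0.81 log2 units. No detection calls were used, so whether these values lie above background was not tested.

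The design's central comparison sets both KSR1 hairpins against both other arrays. Of the 86 members, 16 had both hairpin arrays above both others and 17 below (18.6% and 19.8%), beside 17.3% and 21.6% of all probe sets, and the split depended on the scaling. After each array was centred on its median it was 23 and 11 members (26.7% and 12.8%), beside 23.2% and 16.4% of all probe sets treated alike. After quantile normalization it was 21 and 12 (24.4% and 14.0%), beside 18.2% and 20.0% of all. limma, fitted over all probe sets with 2 residual degrees of freedom, called 0 members and 0% of all probe sets at an adjusted p under 0.05. At an unadjusted p under 0.05 it had 4 members (4.65%), beside 7.99% of all probe sets, and 2 of them were higher with the hairpins, beside 4.33% of all. Those were DDX60 (log2 difference 0.33, SE 0.06), a dim OAS3 probe set (0.32, SE 0.08) and both of ISG20 (-0.49, SE 0.11, and -0.53, SE 0.14), with a limma adjusted p of 0.619 for each. The spread in this fit is that between unlike lines, and for a gene apart on the hairpin #2 array alone that distance is part of it.

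Whether transfection with a hairpin vector as such went with these genes was asked by setting the 3 shRNA lines against untransfected cells. All 3 were above untransfected for 26 members (30.2%) and below for 12 (14.0%), beside 24.5% and 26.9% of all probe sets. limma called 0 members here as well, beside 0% of all, with 7 at an unadjusted p under 0.05 (8.14%) beside 6.69% of all, 5 of them higher in the shRNA lines, beside 3.91% of all. The fit assumes that the lone untransfected array varies like the others, so its p-values hold no spread of untransfected cells. The 7 probe sets belonged to TLR3, IFI35, RIGI, IRF1, ISG20 and TRIM22. Among those that reach the median brightness, the dimmest RIGI probe set was higher in the shRNA lines by 0.52. IFI35 was at -0.39 and the dimmer ISG20 probe set at -0.51. IRF1 was at 0.28 on its brighter probe set and 0.04 on the other.

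Of 67 other genes listed for the pathway, 60 had a value and 42 reached the median of all probe sets. Over their 135 probe sets 0 differed by 1 log2 unit between hairpin #2 and shCTRL in either direction, and 0 between hairpin #1 and shCTRL. The shares of all probe sets in those pairs, given above, are all under 0.5%, so 0 is near the background. The list includes 20 measured interferon-stimulated genes outside the members, on 48 probe sets, and these also had 0, where 9 of the 86 members passed. Their median hairpin #2 difference from shCTRL, on brightest probe sets, was 0.04, from -0.36 for NT5C3A to 0.89 for CMPK2. Between hairpin #2 and hairpin #1, CMPK2 was higher by 1.01 and SOCS1 lower, at -1.07, and limma called 0 for both hairpins against both others. All 8 interferon genes measured, IFNB1, IFNL1 and IFNL2 among them, were dim at 5.40 to 36.0. All 6 receptor genes reached the median and lay between 133 and 1002, and the hairpin #2 differences from shCTRL ran from -0.35 for IFNGR2 to 0.41 for IFNAR1 on brightest probe sets.

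The 6 pathway genes with the widest spread over the arrays are given next. CMPK2, an interferon-stimulated nucleotide kinase, had 48.5 with hairpin #1 and 114 with hairpin #2, against 54.2 in shCTRL and 29.6 in untransfected cells, 0.89 above shCTRL for hairpin #2 and 1.51 above untransfected cells. STING1, the adaptor of cytoplasmic DNA sensing, had 166 and 295 with the hairpins, 191.5 in shCTRL and 150.2 in untransfected cells, and SP110, a nuclear body protein, had 219 and 324, against 198 and 207. Both were higher with hairpin #2, by 0.58 and 0.67. SOCS1, the feedback inhibitor of JAK kinases, was the reverse, with 113 and 45.9 against 82.1 in shCTRL and 93.2 in untransfected cells, so hairpin #2 was lowest; on its other 3 probe sets the difference from shCTRL lay between -0.26 and 0.04. JAK1 (981 and 1118 with the hairpins, 943 in shCTRL, 632 in untransfected cells) and MYD88 (636 and 823, against 701 and 529) were lowest in untransfected cells.

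Some markers outside the pathway also differed by 1 log2 unit between hairpin #2 and shCTRL. The intestinal keratin KRT20 had 52.5 with hairpin #1 and 275 with hairpin #2, against 63.7 in shCTRL and 166 in untransfected cells, so it was also high in untransfected cells. Lysozyme (LYZ), listed as a leukocyte marker, had 9.03 and 60.0 on its dimmer probe set, against 13.1 and 20.1. On its brighter probe set it had 16.9 and 30.9, against 20.3 and 21.8, only 0.37 log2 units above shCTRL for hairpin #2. The defining leukocyte marker PTPRC was at 15.5 with hairpin #2 against 17.4 in shCTRL. Their part in the interferon gene values, and that of the brighter hybridization controls, was not tested. The clone, the hairpin's sequence, the culture and the array differ together on the hairpin #2 array and cannot be told apart.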

How the data were processed

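Messenger RNA was measured on 1 Affymetrix array per group, from biotinylated cRNA per the labels' protocols. The authors deposited intensity values on a linear scale, 1 per probe set and array; background correction, summary and normalization are stated by no source used here. Array medians (50.7 to 52.0) and 95th percentiles (1394.9 to 1440.5) were close, and no rescaling was applied in the main counts. Symbols came from the platform annotation of the probe sets (41097 with 1 symbol, 1801 with several, 11777 with none); 2 annotated to a listed symbol and another gene were left out. 0 value columns were unused. Differences are of log2(intensity + 16). Pairs of arrays were counted at 1 log2 unit without a test. limma 3.58.1 (lmFit, eBayes, Benjamini-Hochberg over all 54675 probe sets; R 4.3.3) compared both KSR1 hairpins with both other arrays, and the 3 shRNA lines with the lone untransfected array; the script was tested on simulated data. Members and lists were chosen with earlier results of these data known. Text names members that reach the median of all probe sets (log2 6.08) or differ by 1 log2 unit in a pair, and the 6 pathway genes of widest range that reach it; dim members, receptors, interferons and markers named beside them were chosen after their values were seen. Alternatives covered pseudocounts 1 and 64, a brightness filter, quantile normalization, median centring, 1 probe set per gene and leaving out arrays. The number of arrays limits the precision.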

Additional observations from a re-analysis of the deposited data

Results flagged for a closer look

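With hairpin #1 and hairpin #2 each set against shCTRL, 2 bright members lay on opposite sides by at least 0.25 log2 units. IRF9 was below shCTRL with hairpin #1 (-0.43) and above it with hairpin #2 (0.91), so hairpin #2 exceeded hairpin #1 by 1.34. EIF2AK2 was at -0.31 and 0.27, 0.57 apart, and its second probe set gave 0.06 and 0.32. Each hairpin had 1 array and both differences use the same shCTRL array, and the difference between the hairpins was not tested.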

How the results depend on the processing

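No paired analysis was possible because each group had 1 array. Hairpin #1 minus shCTRL had 0 members past 1 log2 unit under every alternative run, beside 0.123% to 0.428% of all probe sets in either direction. limma called 0 members in both comparisons under every alternative. Hairpin #2 minus shCTRL had 9 of 86 probe sets (10.5%), beside 0.487% of all, and 5 to 12 over all alternatives. The fewest were 5 of 86 with a pseudocount of 64 (5.81%, beside 0.260% of all). The most were 12 of 86 with a pseudocount of 1 (14.0%, beside 0.682%). Hairpin #2 minus untransfected had 13 of 86 (15.1%), beside 0.593% of all. With a pseudocount of 64 it had 6 of 86 (6.98%, beside 0.305%), and with 1 probe set a gene 8 of 50 (16%, beside 0.910%). With a pseudocount of 1, shCTRL and hairpin #1 each had 1 member of 86 (1.16%), TLR3, past 1 log2 unit above untransfected cells. The shares of all probe sets were 0.285% for shCTRL and 0.278% for hairpin #1. The count of hairpin #2 above all 3 other arrays, chosen after seeing the data, was 8 of 86 (9.30%), beside 0.249% of all. It was 5 of 86 with a pseudocount of 64 (5.81%, beside 0.165%). With the brightness filter it was 5 of 38 (13.2%, beside 0.369%), and with 1 probe set a gene 5 of 50 (10%, beside 0.405%). The brightness filter raised the members' median difference to 0.27 for hairpin #2 minus shCTRL, 0.35 minus untransfected cells and 0.38 minus hairpin #1. With 1 probe set a gene the second was 0.26. Means used for the brightness filter include hairpin #2, so a high value there helps a member to pass. The filtered medians and the filtered count of 5 are therefore no independent support. Members with both KSR1 hairpins on 1 side of both others were 33 of 86, beside 38.9% of all probe sets. They were 13 of 38 with the filter (beside 40.4% of all that pass it) and 16 of 50 with 1 probe set a gene (beside 39.9%). With 1 array left out they were 53 to 72 of 86, beside 68.1% to 71.0% of all. Without hairpin #1, hairpin #2 was above both others for 50 members and below for 22 (58.1% and 25.6%), beside 33.2% and 37.8% of all. Without hairpin #2, hairpin #1 was above for 21 and below for 38 (24.4% and 44.2%), beside 31.4% and 36.8%. For the 3 shRNA lines against untransfected cells the counts, in the same order, were 38, 16, 19 and 52 to 55. The shares of all probe sets beside them were 51.4%, 53.2%, 51.6% and 65.3% to 69.7%. Without hairpin #1, 40 members were higher and 15 lower (46.5% and 17.4%), beside 31.7% and 33.5% of all. Without hairpin #2, 27 were higher and 25 lower (31.4% and 29.1%), beside 32.2% and 34.5%. Of single-gene values, 10 lost the 1 log2 unit limit and 6 gained it, among them OAS1, IFI6 and IFIH1 for hairpin #2 minus shCTRL, each just short of it with a pseudocount of 64; 0 of the values past the limit changed direction. The scaling alternatives moved array medians by at most 0.01. Dim probe sets limit the sizes, since detection was not called.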
